A study of Mus musculus with 16 samples.

Results

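The regions described here are called CHIR-only by a rank rule on day 3 of neural differentiation. They held a high-ranking peak in wild type (WT) cells given the Wnt activator CHIR99021 (CHIR) and in no other library of that day. Lower ranking peaks were deposited in at least 1 other day 3 library for 4126 of them (72.2%). Of the 80595 consensus regions of the series, 5715 were CHIR-only, which is 7.09%. A region counted as open in a library when it overlapped one of the 50000 deposited intervals with the highest −log10 p of that library. A CHIR-only region was open in both CHIR libraries and in none of the other 8 libraries of day 3. The regions were thus chosen by the peak ranks of the 10 day 3 libraries, and their opening with CHIR is a description and carries no test.

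The series holds 16 ATAC-seq libraries in 8 groups of 2, made from mouse embryonic stem cells (ESCs) on their way to anterior neural progenitor cells (antNPCs). ATAC-seq inserts sequencing adapters with a transposase, and peaks of insertion mark accessible chromatin. The day 3 groups were WT with CHIR (3 µM, a GSK3 inhibitor), Tet1 knockout (KO) with the tankyrase and Wnt inhibitor XAV939 (XAV, 5 µM), KO, Tet1 catalytic mutant (MUT) and WT cells, with the drugs present from day 2. The day 2 groups were KO, MUT and WT cells. All lines are B6129S6F1 ESCs, and the KO is the Tet1 tm1Koh allele. The MUT lines are clones edited in the line of CHIR replicate 1. The CHIR libraries came from the lines WT7 and WT34, and the untreated WT libraries from WT70 and WT72, so line and treatment cannot be told apart between those groups. The labels give no group with vehicle alone, and no day 2 library came from either CHIR line itself.

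CHIR inhibits GSK3, the kinase that marks β-catenin for degradation. Stabilised β-catenin enters the nucleus and binds TCF and LEF factors, which sit on DNA at short sites such as CTTTGAA or CTTTGAT. In the mouse embryo this pathway marks the primitive streak and the posterior body, while the anterior neural plate forms where Wnt signalling is kept low. T-box factors such as Brachyury and Eomes act in the streak and in the mesoderm that leaves it.

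Marker promoters were checked in all libraries, counted as a gene with an open region within 1 kb of a transcription start site (TSS). Of 5 epiblast genes, 4 and 5 had an open promoter in the CHIR libraries, against 5 in each of the other 14 libraries. The gene that was not open in 1 CHIR library was Pou5f1, the pluripotency factor OCT4. Of 4 streak genes, 4 were open in both CHIR libraries and 3 to 4 in the others. Of 4 neural genes, 3 were open with CHIR and 2 to 3 elsewhere. Of 9 fibroblast genes, which would mark feeder cells, 6 were open with CHIR and 5 to 6 elsewhere, with Col3a1, Prrx1 and Lum open in none of the 16. Extraembryonic endoderm gave 3 of 4 genes with CHIR and 3 to 4 elsewhere, and trophoblast 4 of 4 with CHIR and 2 to 4 elsewhere. Open promoters do not separate these cell types here, since each of the 6 kinds had marker promoters that were open in every library. No marker promoter held a CHIR-only region. The part of other cell types in the CHIR-only regions was not tested. Between 161449 and 276451 peaks were listed in a library. How many reads they rest on is unknown.

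The sequences below are stretches of 100 bases (plus strand, mm10) of CHIR-only regions near genes of Wnt feedback, the posterior body, the Hox clusters, the streak and the mesoderm. For the first 2 genes of each list with such a region, the strongest region with a TCF/LEF site is shown around that site. They are shown because these letters had the highest share in CHIR-only regions of all families searched. Capitals mark the site, which reads CTTTGAA or its variant CTTTGAT on one strand. On the other strand these read TTCAAAG and, for the variant, ATCAAAG. The first, the strongest CHIR-only region of all, held none of these in its central 300 bp and is given without capitals. Each is named for the protein-coding gene with the nearest TSS, which lies 98755 bp away at Lhx1 and 71541 bp away at Hand1. Strength means the sum of the −log10 p ranks in both CHIR libraries.
Cyld, chr8:88719754-88719853: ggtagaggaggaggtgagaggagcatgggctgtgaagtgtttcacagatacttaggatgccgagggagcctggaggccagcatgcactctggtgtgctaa
Axin2, chr11:108897784-108897883: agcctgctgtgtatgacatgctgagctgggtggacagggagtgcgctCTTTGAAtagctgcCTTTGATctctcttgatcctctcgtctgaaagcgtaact
Tnfrsf19, chr14:60985159-60985258: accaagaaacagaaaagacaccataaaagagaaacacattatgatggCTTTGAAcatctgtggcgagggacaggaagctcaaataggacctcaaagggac
Greb1, chr12:16772285-16772384: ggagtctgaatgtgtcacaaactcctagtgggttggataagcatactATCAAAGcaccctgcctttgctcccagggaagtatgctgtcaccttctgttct
T, chr17:8421732-8421831: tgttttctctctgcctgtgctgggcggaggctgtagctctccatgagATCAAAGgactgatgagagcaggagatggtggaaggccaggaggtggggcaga
Hoxb1, chr11:96370585-96370684: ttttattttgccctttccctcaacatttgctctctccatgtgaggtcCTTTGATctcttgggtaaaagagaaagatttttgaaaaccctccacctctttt
Hoxc4, chr15:103042335-103042434: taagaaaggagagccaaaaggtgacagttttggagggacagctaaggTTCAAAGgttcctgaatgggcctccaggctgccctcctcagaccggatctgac
Lhx1, chr11:84624176-84624275: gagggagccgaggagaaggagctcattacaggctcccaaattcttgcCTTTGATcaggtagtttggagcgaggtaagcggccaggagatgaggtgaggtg
Snai1, chr2:167543131-167543230: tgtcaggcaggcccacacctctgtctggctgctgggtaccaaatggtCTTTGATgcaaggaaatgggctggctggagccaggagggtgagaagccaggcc
Foxc1, chr13:31784514-31784613: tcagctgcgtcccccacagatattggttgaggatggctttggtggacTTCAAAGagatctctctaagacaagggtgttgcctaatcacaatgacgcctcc
Hand1, chr11:57904225-57904324: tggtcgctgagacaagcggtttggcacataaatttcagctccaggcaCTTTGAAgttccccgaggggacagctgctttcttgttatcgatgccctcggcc

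WT cells with CHIR had many more regions of their own than any other day 3 group. The counts are not like for like, since KO and KO with XAV share their lines and so exclude each other's regions. No other library came from the CHIR lines WT7 and WT34 themselves, although the MUT lines were edited from that of CHIR replicate 1. Line and CHIR thus cannot be told apart. The same rule applied to each group returned 5715 regions for WT with CHIR, 633 for KO, 618 for KO with XAV, 284 for MUT and 322 for untreated WT cells. With all peaks of a −log10 q of at least 2 kept in place of the top 50000, it returned 10341 for WT with CHIR and 3120 for KO with XAV, the next largest. Both CHIR libraries were open at 44791 consensus regions, and 29093 of these were open in all of the other 8 as well. Just outside the rule, 1453 regions were open in both CHIR libraries and in 1 of the other 8. That single library was KO replicate 1 in 749 of them and KO replicate 2 in 207, while WT replicates gave 112 and 103, MUT replicates 72 and 85, and KO XAV replicates 64 and 61. Another 633 regions were open in both CHIR and both KO libraries and in none of the 6 others (CHIR-and-KO regions), and 2028 were open in the other 8 and closed in both CHIR libraries (closed with CHIR). These sets serve below for comparison.

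**Figure D1:**
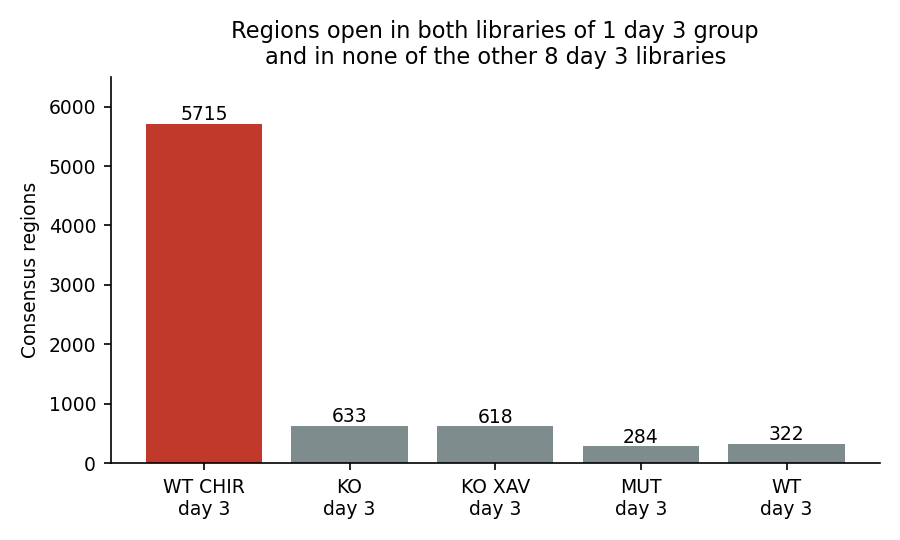
Bars give the number of consensus regions (linear axis from 0) that were open in both libraries of a day 3 group and in none of the other 8 day 3 libraries. The CHIR bar stands at 5715 regions and the other 4 bars lie between 284 and 633. The top 50000 intervals of each library were used.

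CHIR-only regions had a middling strength within the CHIR lists, and the CHIR libraries ranked them alike. The fold enrichment at the summit, the authors' ratio to local background, had a median of 7.13 in CHIR replicate 1 and 7.48 in replicate 2, close to the medians of 7.28 and 7.85 over all kept intervals. The best placed region ranked 585 in replicate 1 and 516 in replicate 2, and the median ranks were 29665 and 31350. The weakest still inside the rule had a −log10 p of 10.9 and a fold of 5.64 in replicate 1, and a −log10 p of 11.1 and a fold of 3.85 in replicate 2. The first intervals left out had a −log10 p of 10.9 (fold 4.27) and 11.1 (fold 4.84). Across the 5715 regions, ranks in both lists had a Spearman rho of 0.703, a description over regions that share their libraries. The summits in the CHIR libraries lay a median of 18 bp apart, and 86.7% lay within 50 bp.

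The strongest CHIR-only region lay on chromosome 8, 9469 bp upstream of the nearest annotated TSS of Cyld, a deubiquitinase, and 1804 bp from that of Gm17995. Its fold enrichment was 18.8 and 20.9 in the CHIR libraries, against 5.15 in KO day 3 replicate 1 and no deposited peak in the other 13. The third strongest, 139961 bp from Spdl1, a kinetochore adaptor of dynein, had folds of 14.5 and 16.9 with CHIR and no deposited peak in any of the other 14 libraries. The second, 68160 bp upstream of Pcmtd1, had folds of 14.7 and 16.2 with CHIR. It also carried weaker peaks in 7 of the other 8 day 3 libraries, with folds of 3 to 6.12, and in all 6 day 2 libraries. The 10 strongest regions thus ranged from places with no other peak to places with a weak peak nearly everywhere.

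Among these 10 were also regions 40005 bp upstream of Kctd4 (folds 16.7 and 20.3 with CHIR, 3.22 and 3.24 in the KO day 3 libraries, none in the other 12) and 173895 bp upstream of Lef1, which encodes one of the TCF/LEF factors. The Lef1 region had folds of 13.0 and 14.4 with CHIR and weaker peaks of 2.67 to 5.15 in 6 of the other 8 day 3 libraries. It lay 761 bp from the TSS of 2010110G14Rik. The others lay nearest to Mettl22, Gm572, Dynlt1c, Trmt44 and Eipr1, at CHIR folds of 10.6 to 14.2. A TCF/LEF site was found in 4 of the 10 regions, those at Gm572, Kctd4, Lef1 and Dynlt1c.

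CHIR-only regions were mostly away from promoters. Of the 5715, 4581 (80.2%, Wilson 95% interval 79.1 to 81.2) lay over 3 kb from every annotated TSS, against 84.7% of CHIR-and-KO regions, 74.9% of regions closed with CHIR and 59.1% of all consensus regions. By position, 2366 (41.4%) were intronic, 2048 (35.8%) intergenic, 1134 (19.8%) within 3 kb of a TSS, 74 in a UTR and 93 in another exon. From a TSS they lay a median of 11866 bp, against 13483 bp in the CHIR-and-KO set, 9965 bp in the set closed with CHIR and 5459 bp in the whole consensus. Intervals of this kind cover counting over regions only. Regions are not replicates.

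Their base composition was close to that of the consensus, but they held fewer CpGs than the consensus as a whole. The median GC content of the central 300 bp was 52.3%, against 50.7% in both comparison sets and 53.7% in all regions, with a mean of 3.94 CpGs per region against 3.13, 4.15 and 9.34. They were spread over the genome, taking 6.3% to 8.74% of the consensus regions of each of the 19 autosomes. Another CHIR-only region lay within 50 kb for 2379 of them (41.6%) and within 10 kb for 722 (12.6%). The 5715 regions rested on 5713 distinct deposited intervals in each CHIR library, so nearly all were separate intervals.

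TCF/LEF letters had the highest share of the 14 families searched in CHIR-only regions, at 2 to 3 times the share in all consensus regions. At least 1 site lay in the central 300 bp of 1606 regions (28.1%, Wilson 95% interval 27.0 to 29.3), against 28.1% of CHIR-and-KO regions, 9.62% of regions closed with CHIR and 10.9% of all consensus regions. Among distal regions alone the shares were 28.8%, 29.1%, 10.5% and 13.6%. At least 2 sites were found in 4.83% of CHIR-only regions, against 4.42%, 0.641% and 0.976%. The longer forms CCTTTGAA and CCTTTGAT gave 12.1%, against 10.1%, 2.42% and 3.78%. With CHIR-only regions split by strength into 4 groups of 1428 or 1429, the share with a site was 35.1% in the strongest group and 27.6%, 25.8% and 23.8% in the following ones.

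The sites lay toward the middle of the regions. Of 1913 TCF/LEF sites in CHIR-only regions, 49.7% were within 50 bp of the centre, against 45.6% of 206 in CHIR-and-KO regions, 27.1% of 210 in regions closed with CHIR and 35.4% of 9653 in all consensus regions. In bins of 25 bp, the share of CHIR-only regions with a site was 4.3% just before the centre and 1.29% to 1.36% at the edges. The Axin2 region printed above is an example with a pair of sites.

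**Figure D2:**
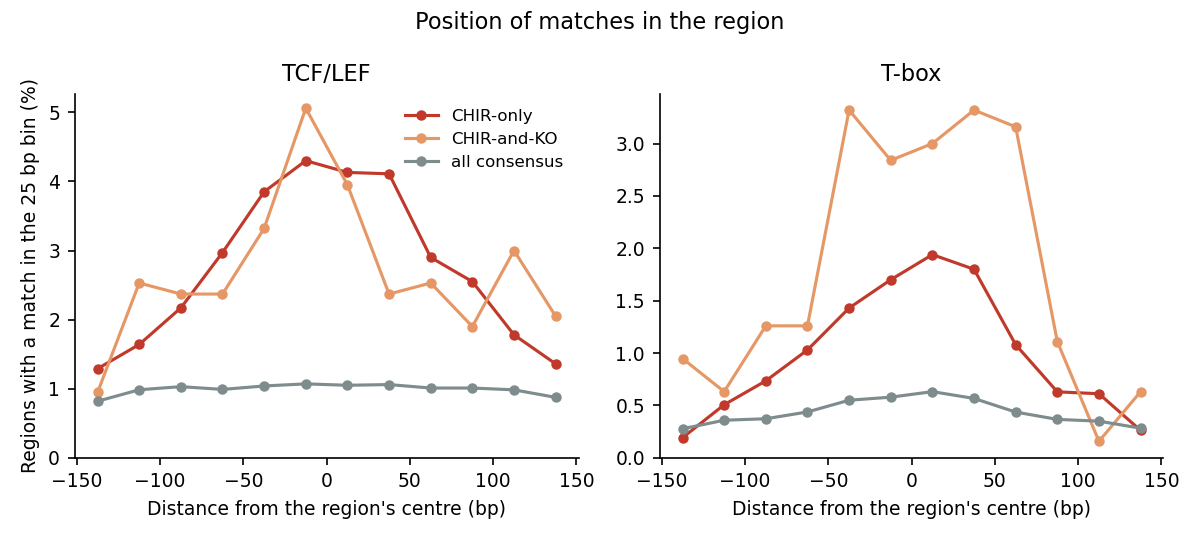
Lines give the percent of regions with a TCF/LEF (left) or T-box (right) match in each 25 bp bin, by distance from the region's centre in bp. In CHIR-only regions the TCF/LEF share reached 4.3% beside the centre and 1.29% at the left edge.

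T-box and forkhead letters were found at lower shares in CHIR-only than in CHIR-and-KO regions, while the TCF/LEF shares were alike. The intervals cover counting over regions only, the sets were split by KO peaks of day 3, and no difference was tested. The T-box sequence AGGTGTNA was found in 10.8% of CHIR-only regions (interval 10.0 to 11.6), against 18.6% of CHIR-and-KO regions (15.8 to 21.9), 5.77% of regions closed with CHIR and 4.99% of all consensus regions. The forkhead sequence TGTTTAC was found in 3.41% (2.97 to 3.91), against 10.4% (8.28 to 13.1), 5.82% and 3.87%. For TCF/LEF the intervals were 27.0 to 29.3 in the CHIR-only set and 24.8 to 31.7 in the CHIR-and-KO set. T-box letters were found in 8.22% of the CHIR-only regions with a TCF/LEF site and in 11.8% of those without one, and in the CHIR-and-KO set in 19.7% and 18.2%.

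Of the other sequences searched on both strands, the letters of GATA factors, AGATAAG, were found in 6.77% of CHIR-only regions, against 7.11% in the CHIR-and-KO set, 3.06% in the set closed with CHIR and 3.3% of all regions. CTAATTA (LIM homeobox factors) was found in 3.66%, against 3.95%, 2.71% and 2.12% in the same sets. The OCT octamer ATGCAAAT gave 1.68%, against 6.71% in the set closed with CHIR and 2.75% of all regions. The values that follow are set against the closed set and all regions in the same way. CCATTGT (SOX factors) gave 3.04%, against 7.2% and 4.11%. GGAATGT (TEAD factors) gave 4.99%, against 10.4% and 5.7%. AGGGGGC, with AGGTGGC as a variant (CTCF), gave 15.3%, against 19.8% and 22.7%. CCTGCTG (ZIC factors) gave 23.8%, against 28.4% and 16940 of the 80595 consensus regions. The NFY letters CCAATCA and, as a variant, CCAATGA gave 5.79%, against 11.5% and 9.42%. The AP-1 letters TGACTCA, which read TGAGTCA on the other strand, gave 7.07%, against 11.3% and 9.24%. GGGCGTG, with GGGTGTG as a variant (KLF and SP factors), gave 16.2%, against 10.4% and 15.0%, and TTTATTG, with TTTATGG as a variant (CDX factors), gave 4.92%, against 4.68% and 4.5%. In the CHIR-and-KO set the shares were 2.84% for OCT, 4.9% for SOX, 5.69% for TEAD, 17.7% for CTCF and 27.3% for ZIC. They were 6.48% for NFY, 5.53% for AP-1, 15.8% for KLF and SP and 5.53% for CDX. Among distal regions, CDX letters gave 5.02% of CHIR-only and 5.37% of all regions, and ZIC letters 23.3% and 23.7%. The other letters of this paragraph kept their direction against all regions there. A match is a string of letters and not a shown binding site.

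**Figure D3:**
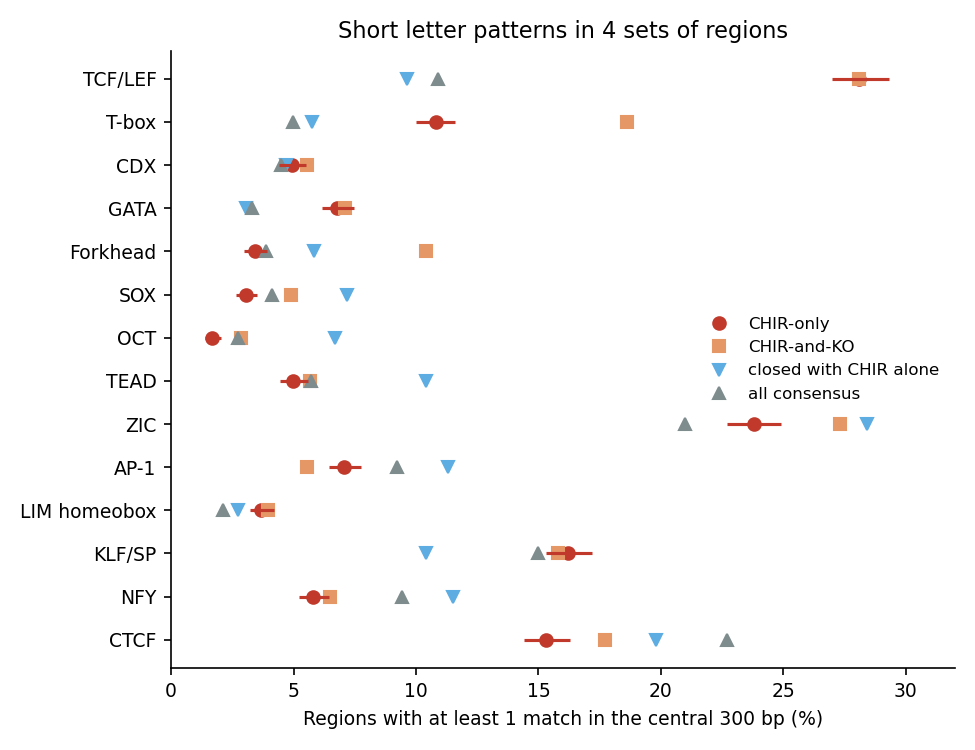
Points give the percent of regions with at least 1 match in the central 300 bp for 14 sequence families in CHIR-only, CHIR-and-KO, closed with CHIR and all consensus regions, with Wilson 95% intervals on CHIR-only points. TCF/LEF matches stand at 28.1% of CHIR-only regions and 10.9% of all consensus regions.

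On day 2, before CHIR was added, few of these regions were open. None of the 6 day 2 libraries was open at 5489 of the 5715 (96.0%), whereas 81.1% of all consensus regions were open in at least 1. In single libraries the share of CHIR-only regions that was open was 1.28% and 1.15% in KO, 1.12% and 1.19% in MUT and 1.5% and 1.66% in WT. The WT libraries lay above the KO and MUT libraries, a difference that was not tested. The day 2 libraries come from the same KO, MUT and WT lines that had to be closed on day 3, so low shares there are in part set by the rule.

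CHIR-only regions were compared on day 2 with CHIR-and-KO regions, within each library. The open share averaged 1.32% ± 0.218 in CHIR-only regions and 2.98% ± 0.923 in CHIR-and-KO regions (SD, n = 6 libraries), lower in CHIR-only regions in 5 of 6 libraries. The exception was WT day 2 replicate 2, with 1.66% and 1.58%. CHIR-and-KO regions had to be open on day 3 in the KO lines that also gave 2 of these libraries. They were chosen as open in both KO libraries besides both CHIR libraries, so lower CHIR-only shares are in part set by the rule. The test below measures the spread between libraries and cannot separate this from the rule. The difference of -1.66 percentage points had a two-sided exact sign-flip permutation p of 0.0625 and an adjusted p of 0.0625 over 2 tests. The share with any deposited peak, however weak, averaged 31.3% ± 6.44 in CHIR-only regions and 55.1% ± 12.0 in CHIR-and-KO regions (SD, n = 6), lower in 6 of 6 libraries. That difference of -23.7 points had an exact permutation p of 0.0312, the smallest 6 libraries allow, and an adjusted p of 0.0625. Neither passed 0.05 after adjustment, and the open share difference was -1.06 points without CHIR replicate 2 and -2.79 without MUT day 3 replicate 1. With all peaks of a −log10 q of at least 2 kept, the difference was -4.17 points for the open share and -5.62 for any deposited peak. Both exact permutation adjusted p were 0.0312 in that setting, with the top 30000, with the top 70000 and with ranking by fold, and stayed above 0.05 with a wider summit window or a larger overlap.

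Most CHIR-only regions had a deposited peak in at least 1 other day 3 library that ranked below the top 50000 there. The −log10 p at rank 50000 was 6.84 to 13.4 in those 8 libraries, against 10.9 and 11.1 with CHIR, so a lower rank is not always a lower value. At a region 21573 bp upstream of Nkd1, folds were 5.26 and 5.9 with CHIR and 2.16 to 5.89 in the other 8. The lists of the other 8 held no overlapping peak of any strength for 1589 (27.8%), and all 8 held one outside their top 50000 for 434 (7.59%). The share with a deposited peak was 32.7% and 33.2% in KO XAV, 58.1% and 31.9% in KO, 30.1% and 33.7% in MUT and 31.2% and 28.1% in WT libraries. The KO libraries differed most from each other. KO replicate 1 stood above the other 7, whereas KO replicate 2, which had the fewest distinct intervals of the series (135359, against 164351 in KO replicate 1), lay among them. Depth and line cannot be told apart there. The same shares over consensus regions not open in a library were 68.4% to 85.8% in those 8 libraries, higher than for CHIR-only regions in each of them. CHIR-only regions had to lie outside the top 50000 of all 8, the comparison regions only of that library. The rule thus sets this direction in part.

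Where such a peak was deposited, its median fold was 3.12 to 3.85 in the other day 3 libraries, against 7.13 and 7.48 with CHIR. The 1589 regions with no other day 3 peak were set beside the remaining 4126. TCF/LEF sites were found in 31.9% and 26.6%, T-box letters in 11.5% and 10.5%, and 81.6% and 79.6% were distal.

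**Figure D4:**
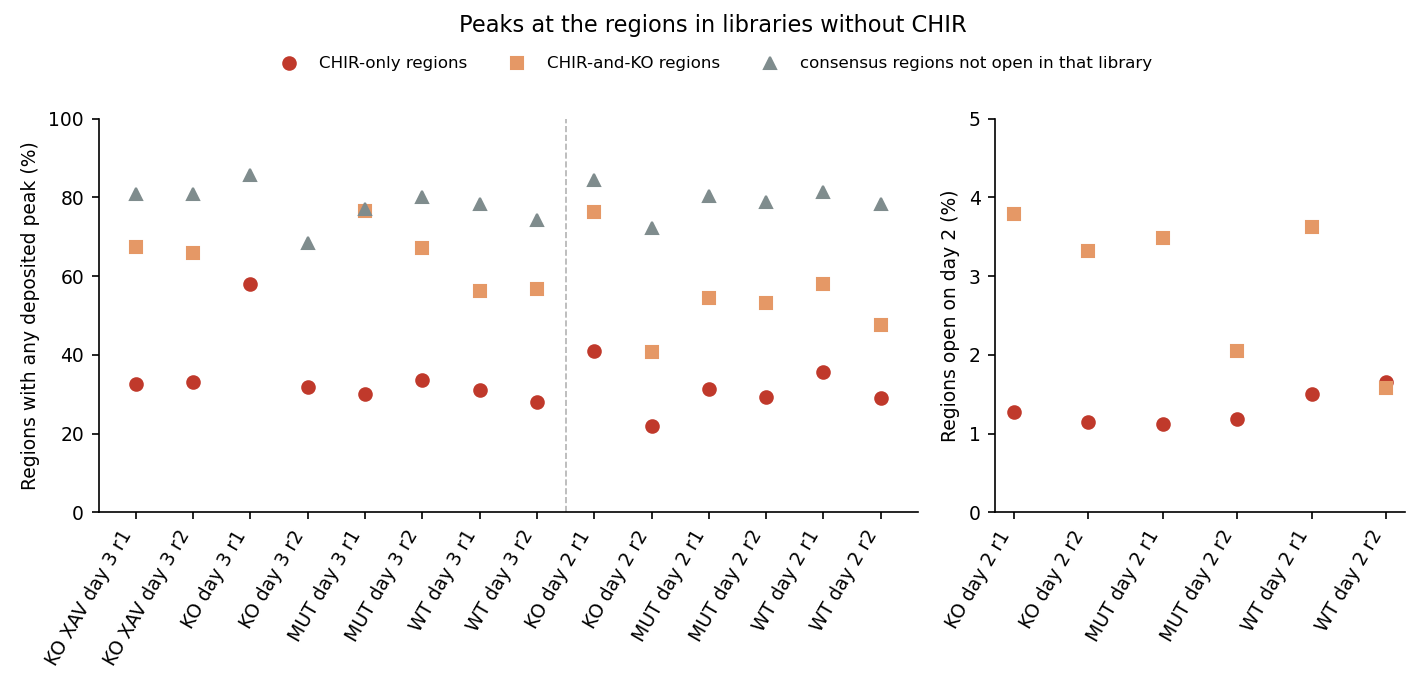
Left, the percent of CHIR-only regions, CHIR-and-KO regions and consensus regions not open in that library that had any deposited peak, in each of the 14 libraries without CHIR (KO day 3 is left out for CHIR-and-KO regions, where it is 100 by the rule). Right, the percent open in each day 2 library. CHIR-only points lie between 22.0% and 58.1% on the left, below the grey points in every library. Grey regions had to be closed in that library only, so this order is in part set by the rule.

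A small group of CHIR-only regions was open in all 6 day 2 libraries. These 11 regions, named here after their values were seen, lay nearest to Cmklr1 (2 regions), Celf6, Rbm24, Gm5148, Zcchc14, Podxl2, Mobp, Sec11c, Pcdh20 and Kdm3b. The Cmklr1 regions had the same CHIR folds (7.19 and 9.72) and the same summed rank, so they rest on 1 shared interval in each CHIR library. At Rbm24, which encodes an RNA-binding protein of muscle and heart, the fold was 9.07 and 9.66 with CHIR, 2.52 to 4.76 in the other day 3 libraries and 7.73 to 12.2 on day 2. The CHIR values here fell within the range of the day 2 libraries. Of the 226 CHIR-only regions open in at least 1 day 2 library, 17.3% held a TCF/LEF site and 70.8% were distal, against 28.5% and 80.5% of the 5489 others.

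The regions were set against the lists of regions that the authors called as differing between KO and WT cells on day 3. Of CHIR-only regions, 73 (1.28%) overlapped one listed as opened in KO and 2 one listed as closed, against 280 (44.2%) and 0 of the CHIR-and-KO regions. Both sets were themselves chosen by KO and WT peaks of the same day, so both overlaps are in part fixed by the rule. Over all consensus regions 926 (1.15%) overlapped one listed as opened and 849 (1.05%) one listed as closed.

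A total of 4598 CHIR-only regions (80.5%) lay within 100 kb of the TSS of a protein-coding gene and were assigned to the nearest one. This is a rule of distance and does not show that a region acts on that gene. Of 17403 genes with a consensus region, 3201 (18.4%) had at least 1 CHIR-only region, 863 had 2 or more and 66 had 5 or more. Genes with more consensus regions have more chances, so the share of a gene's or list's consensus regions that were CHIR-only is given beside the 7.09% of all consensus regions.

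Tenm4, a teneurin transmembrane adhesion protein, had the most, with 14 CHIR-only regions among 47 consensus regions. Rnf220 (a ubiquitin ligase) and Kif6 (a kinesin) had 9 each, of 32 and 16. Gabbr2 (a subunit of the GABA-B receptor), Gse1 and Prex1 (a Rac exchange factor) had 8 each, of 21, 51 and 30. Axin2, Itpr1 (a calcium channel of the endoplasmic reticulum) and Erc2 (a presynaptic scaffold) had 7 each, of 20, 27 and 29. Of the genes named here, Axin2 had TCF/LEF sites in the highest share of its regions, 4 of 7, against 3 of 14 at Tenm4 and 0 of 8 at both Gse1 and Prex1.

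Wnt feedback targets, genes known to be induced by the pathway they then restrain or relay, stood highest among 20 gene lists. Of 21 such genes with a consensus region, 14 had a CHIR-only region, and 34 of their 195 consensus regions were CHIR-only (17.4%). Axin2, a scaffold of the complex that degrades β-catenin, had 7. The strongest lay 22542 bp upstream of its TSS, with folds of 9.04 and 9.33 with CHIR, weaker peaks of 2.59 to 4.97 in 5 of the other 8 day 3 libraries, and none on day 2. An intronic one 4091 bp downstream had folds of 4.39 and 5.34 with CHIR and no peak in any other library. Every other CHIR-only region of Axin2 had a deposited peak in at least 1 other day 3 library. These were not always much weaker. At the region 18204 bp downstream, folds were 4.8 and 6.36 with CHIR and 3.36 to 5.76 in 6 of the other 8.

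Tnfrsf19, a receptor of the TNF family, had 5 CHIR-only regions, and the strongest, 9428 bp upstream, had folds of 8.02 and 10.5 with CHIR and weaker peaks of 2.69 to 4.39 in 7 of the other 8 day 3 libraries. Nkd1, an inhibitor of Dishevelled, had 4 of its 9 consensus regions in the set. Its strongest, 26008 bp upstream, had folds of 7.41 and 9.23 with CHIR, 3.12 to 4.27 in 4 other day 3 libraries and none on day 2. The remaining Nkd1 regions had peaks in 7 or 8 of the other 8 day 3 libraries and in all 6 day 2 libraries. Sp5, a zinc finger factor induced by Wnt, had 3 of 9. The one 386 bp upstream of its TSS had low folds of 3.2 and 3.21 with CHIR, 1.69 and 2.43 in KO cells and no peak in the other 12 libraries. Lef1 had 3 within 100 kb, and Ccnd1, which encodes cyclin D1, had 2.

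Of 35 genes for Wnt ligands, receptors and effectors, 15 had a CHIR-only region, and 28 of 253 consensus regions were CHIR-only (11.1%). Tcf7l2, a TCF factor, had 5, of 22. One of these, in an intron 72262 bp downstream of a Tcf7l2 TSS, had folds of 8.61 and 8.22 with CHIR and no peak elsewhere. Fzd10, a Wnt receptor, had 4 of 13, the strongest at folds of 10.7 and 8.61 with CHIR and 2.95 to 3.22 in 3 other day 3 libraries. Tcf7l1, the TCF factor that mainly represses, and Fzd7 had 3 each.

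Primitive streak genes most often had a CHIR-only region. They were found at 14 of 18 genes, and 25 of 155 consensus regions were CHIR-only (16.1%). The region 12622 bp upstream of T, which encodes Brachyury, had folds of 12.0 and 13.7 with CHIR, 3.02 and 2.87 in KO, 2.74 and 2.67 in MUT, and no peak in KO XAV or WT cells on day 3. On day 2 it had folds of 2.53 in KO replicate 1 and 2.21 in WT replicate 1. At Mesp1, a bHLH factor of nascent mesoderm, a region 3504 bp upstream had folds of 5.37 and 6.05 with CHIR and 2.81 in KO replicate 1 alone of the rest. Snai1, a repressor of E-cadherin, had 3 of 10, with folds of 5.78 and 5.93 with CHIR at the strongest, 5031 bp downstream of its TSS. Lhx1, a LIM homeobox factor, had 4 of 14 and also 3 CHIR-and-KO regions. Eomes, a T-box factor, had 2 of 18.

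Of 28 mesoderm genes 13 had a CHIR-only region, and 30 of 200 consensus regions were CHIR-only (15.0%). Foxc1, a forkhead factor of paraxial mesoderm, had 6 of 15, and 3 of the 6 had no deposited peak in any other library. The strongest of these, 22040 bp upstream, had folds of 9.29 and 13.6 with CHIR. Hand1, a bHLH factor of lateral mesoderm and trophoblast, had 5 of 13, with folds of 12.3 and 9.79 and no other peak at the strongest, 71541 bp upstream. Aldh1a2, which makes retinoic acid, had 3 of 5, of which 1 in an intron had folds of 10.8 and 12.7 with CHIR and 3.86 in KO replicate 1 alone.

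Genes of the Notch pathway and the somite clock, which times segmentation of the paraxial mesoderm, had CHIR-only regions at 8 of 15, with 18 of 111 consensus regions in the set (16.2%). At Ripply2, a repressor at the forming somite boundary, 3 of 9 were CHIR-only. The strongest, 28443 bp upstream, had folds of 11.4 and 11.1 with CHIR and no peak in any of the other 14 libraries, and one 6850 bp upstream had 8.12 and 9.35, again with no other peak. Hes1, a repressor downstream of Notch, had 4 of 17. Its strongest, at 11.1 and 11.4 with CHIR, had weaker peaks of 3.05 to 6.69 in all 6 day 2 libraries.

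Posterior and neuromesodermal genes had CHIR-only regions at 10 of 22, with 15 of 147 consensus regions (10.2%). Msgn1, a bHLH factor of presomitic mesoderm, had 2 of 5. The one 221 bp upstream of its TSS held 2 TCF/LEF sites and had folds of 6.28 and 7.24 with CHIR, 3.58 in KO replicate 1, 3.06 in MUT replicate 1 and none in the other 12 libraries. Greb1, known as an oestrogen-induced gene, had 3 of 14, and Cyp26a1, which degrades retinoic acid, had 1 of 6. Hox genes had them at 5 of 32 (15.6%, below the 18.4% of all genes), while 8 of 88 consensus regions were CHIR-only (9.09%). The Hoxb1 region 4273 bp downstream of its TSS had folds of 4.11 and 3.97 with CHIR and no other peak. The one 99 bp from that TSS had 5.11 and 5.33, with 2.17 to 3.81 in 7 other day 3 libraries. On day 2 this region had folds of 3.47 to 4.57 in all 6 libraries and was open in 2 of them.

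FGF and MAPK feedback genes had CHIR-only regions at 11 of 21 (18 of 175 regions, 10.3%), retinoic acid genes at 7 of 16 (13 of 120, 10.8%) and midbrain and hindbrain genes at 9 of 17 (17 of 173, 9.83%). Both regions at Fgf3, a ligand of the streak and hindbrain, had peaks with CHIR alone, one at 6.04 and 6.2 and the other at 4.53 and 4.1. Definitive endoderm genes had them at 4 of 16 (10 of 114, 8.77%), of which Cxcr4, a chemokine receptor of mesoderm and endoderm, held 7 of its 13 regions. Its strongest, 31721 bp downstream of its TSS, had folds of 8.81 and 10.3 with CHIR and 3.31 in KO replicate 1 alone.

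For the following 5 lists the share of consensus regions lay near or below the 7.09% of all consensus regions, while 26.3% to 42.1% of their genes had at least 1 CHIR-only region, against 18.4% of all genes. The share of consensus regions was 6.03% for anterior neuroectoderm (14 of 232), 7.53% for neural crest and plate border (14 of 186), 6.67% for Nodal and BMP genes (12 of 180), 6.25% for naive pluripotency (8 of 128) and 5.16% for formative pluripotency (8 of 155). Irx3, a homeobox factor of the neural plate, held 6 of the 14 in anterior neuroectoderm and is also on the midbrain and hindbrain list. Its strongest region, 65170 bp upstream, had folds of 11.0 and 11.4 with CHIR and 2.72 to 5.72 in 3 other day 3 libraries. Grhl3, a factor of surface ectoderm, held 4 of the 14 in neural crest and plate border.

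For other cell types, trophoblast genes gave 10 of 100 regions (10.0%), with 5 at Hand1, fibroblast and feeder genes 7 of 79 (8.86%) and extraembryonic endoderm genes 4 of 61 (6.56%). Their part in the other lists was not tested. Housekeeping genes had no CHIR-only region among 61. Lists share genes, as T, Sp5, Msgn1, Mesp1, Hand1 and Irx3 each stand on more than 1, and no test was run on them.

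**Figure D5:**
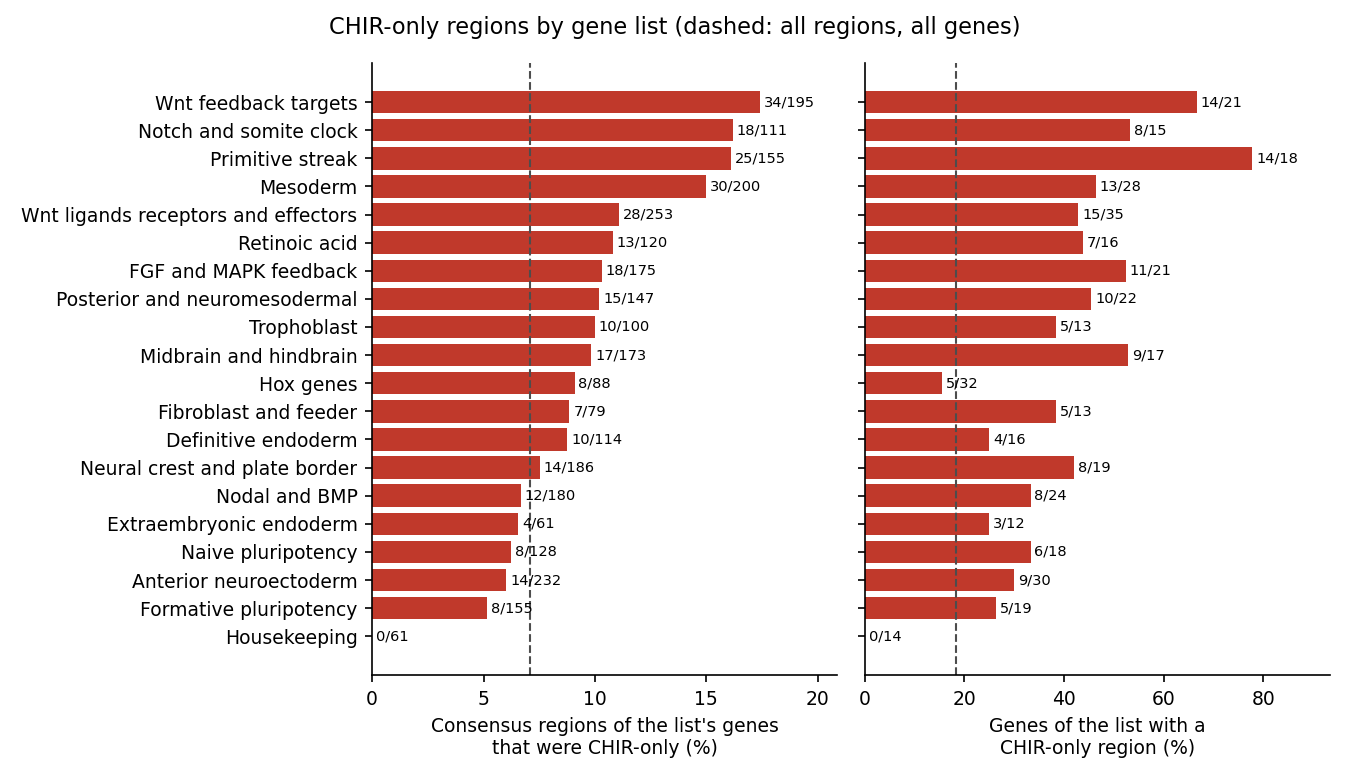
Bars give, for each gene list, the percent of the consensus regions assigned to its genes that were CHIR-only (left) and the percent of its genes with at least 1 CHIR-only region (right), with counts beside them. Dashed lines mark 7.09% of all consensus regions and 18.4% of all genes. Wnt feedback targets stand at 17.4% on the left and primitive streak genes at 77.8% on the right.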

How the data were processed

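Reads of 16 omni-ATAC libraries were run by the authors through the ENCODE pipeline (mm10), and 1 list of peaks was deposited per library. Each deposited peak carries a fold enrichment (a ratio to local background), a −log10 p and a −log10 q from the authors' peak caller. The sources used here give no version of that caller or of the aligner. The deposited BED lists of regions differing between KO and WT cells on day 3 came from DiffBind 3.0.15 and hold coordinates with a row score or number and no statistic. HOMER 2 and deepTools 3.4.3 are further tools listed in the submitters' notes. Replicate 2 of each day 2 group is marked as merged, without further explanation.

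Peaks of a library with the same start and end were joined, the 50000 intervals with the highest −log10 p were kept, and summits of all libraries, extended by 150 bp both ways, were merged. Regions with windows from at least 2 libraries made the consensus. Kept intervals opened a region by an overlap of 1 bp. Values were used only to rank within a library, because no read counts were used and depth is unknown. Distances and positions came from GENCODE M21 and sequence from GRCm38.p6, the same coordinates as mm10. Letters were searched on both strands in the central 300 bp, some families with 2 forms. Day 2 shares were compared within the 6 libraries by an exact two-sided sign-flip permutation test, adjusted by Benjamini-Hochberg over 2 tests. The libraries of a group are separate lines, of which the MUT lines are clones of 1 parental line. The p-values measure the spread between the 6 libraries. Python 3.11.15, numpy 2.4.6, pandas 2.3.3 and scipy 1.17.1 were used, with Wilson intervals at 95%, and the calculations were tested on simulated data.

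The members, gene lists and letters were chosen with earlier results of these data known. Named regions are the 10 with the lowest summed rank in the CHIR libraries. Named genes are the 10 with the most CHIR-only regions, of which 1 is not reported here, and up to 6 per list, by number of regions and then rank. Alternatives were the number and ranking of intervals kept, summit window, overlap, distance limits, motif letters and window, and leaving out each library.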

Additional observations from a re-analysis of the deposited data

How the results depend on the processing

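The number of CHIR-only regions was 3318 with the top 30000 intervals, 10341 with all peaks of −log10 q of at least 2, and 1589 when no deposited peak was allowed in the other 8 libraries, an alternative chosen after seeing the data. With the −log10 q cut-off, the same rule gave 3120 regions for KO with XAV. The distal share was 81.9% with that cut-off, 82.4% ranked by fold, 91.9% at over 1 kb and 81.6% with no other peak. The TCF/LEF share was 30.7% with the top 30000, 26% with the −log10 q cut-off, 12.1% with the strict letters, 23.6% in 200 bp and 31.9% with no other peak, beside 10.2%, 10.9%, 3.78%, 7.51% and 10.9% of all consensus regions. The day 2 difference in open share was -2.59, -1.39, -4.17 and -2.11 points with the top 30000, top 70000, −log10 q and fold settings, and that with any deposited peak -31.1, -18.8, -5.62 and -24, each with an exact permutation adjusted p of 0.0312. Within 500 kb, 13 genes of the Nodal and BMP list had a CHIR-only region, against 8 within 100 kb.

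Leaving out each library in turn gave 5776 to 6464 regions (the highest without KO day 3 replicate 1), a distal share of 79.8% to 80.4% and a TCF/LEF share of 27.6% to 28.1%. The day 2 differences were -2.79 to -1.06 points for the open share, the smallest without WT CHIR day 3 replicate 2, and -27 to -18.2 for any deposited peak. Their adjusted p was 0.0312 without any 1 of the other 8 day 3 libraries. The rule sets the direction of both differences in part, in these settings as well. Consensus regions were kept fixed in these settings. Without a day 2 library, 5 are left, too few to pass 0.05. No paired analysis was possible because neither CHIR line has an untreated library, and the replicate numbers of the groups name different lines. Results at a threshold on ranked peaks cannot separate absence of a peak from shallow sequencing, since depth is unknown, and line cannot be separated from CHIR.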
